A study of Mus musculus with 3 samples.

Results

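CTCF occupancy was described at single protein-coding promoters in mouse LSK cells. These were the peaks of the deposited CTCF list that overlapped the 1 kb on either side of the transcription start site (TSS) of a protein-coding gene, where no protein-coding TSS on the opposite strand lay within 1 kb. The TSS was the 5′ end of the gene record in GENCODE M21. The rule selected 1645 of the 18945 peaks, or 8.68%, and used only the positions of peaks and genes. In 260 of them (15.8%) the midpoint was more than 1 kb from the TSS, and only a part of the peak reached inside the limit. LSK cells are lineage-negative, Sca1-positive and cKit-positive bone marrow cells, a population that includes hematopoietic stem cells and multipotent progenitors. They were sorted from adult C57BL6 mice, male per the study's methods, and 1 ChIP-seq library was made with a CTCF antibody. The inputs of LSK and of megakaryocyte erythroid progenitors (MEP) were not analyzed here. As there was no second library to compare with, the text gives shares, medians and intervals and no p-values. The peak list holds neither read counts nor expression, so the depth is unknown and the labeled cell type could not be checked against its markers.

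CTCF is a DNA-binding protein with a row of zinc fingers that recognize a long motif with a direction. It stops the cohesin complex as cohesin extrudes loops of chromatin, and the direction of the motif sets the side from which cohesin is stopped. At promoters CTCF can lie close to the start of transcription, and at some motifs methylation of a CpG dinucleotide weakens its binding.

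Sequences of the reference (GRCm38.p6, the coordinates of mm10) are shown for the strongest peaks of each motif class, as the direction and the place of the motif relative to the gene are what most of the values below describe. All are written 5′ to 3′ in the direction of transcription of the gene. Capitals mark the core CTCF motif of 12 bases, so that a motif on the strand of transcription has its G-rich end last and a motif on the opposite strand, written as its reverse complement, has its C-rich end first. Of the peaks with a motif within 100 bp upstream of the TSS, the 5 strongest with the motif on the strand of transcription and all 40 bases shown before the TSS lay at Myrf (chr19:10240787-10240826), Vps36 (chr8:22192741-22192780), Eid2b (chr7:28277632-28277671), Alkbh2 (chr5:114128245-114128284) and Psg16 (chr7:17073971-17074010). Myrf and Alkbh2 are on the minus strand of the chromosome, the others on the plus strand.
Myrf: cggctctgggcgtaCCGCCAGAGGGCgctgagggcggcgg
Vps36: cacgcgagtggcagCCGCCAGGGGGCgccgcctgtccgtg
Eid2b: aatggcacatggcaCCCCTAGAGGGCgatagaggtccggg
Alkbh2: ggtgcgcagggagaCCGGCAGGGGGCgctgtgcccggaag
Psg16: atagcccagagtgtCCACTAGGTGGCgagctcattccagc

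Next are the 3 strongest peaks with a motif within 100 bp upstream on the opposite strand, at Tmem106c (chr15:97964104-97964143, plus strand), Nipsnap2 (chr5:129724949-129724988, plus strand) and Chd1l (chr3:97610209-97610248, minus strand), and the strongest with a motif downstream of the TSS, at Cfap299 (chr5:98329493-98329532, plus strand).
Tmem106c: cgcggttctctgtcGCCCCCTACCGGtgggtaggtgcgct
Nipsnap2: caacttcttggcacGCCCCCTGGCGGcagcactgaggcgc
Chd1l: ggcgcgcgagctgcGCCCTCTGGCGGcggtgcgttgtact
Cfap299: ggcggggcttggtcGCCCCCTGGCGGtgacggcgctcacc

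Peaks with 2 motifs are shown by Lsm11 (chr11:45944949-45945052, minus strand), where both motifs are on the opposite strand, and Fitm2 (chr2:163472680-163472721, minus strand), where motifs on either strand overlap.
Lsm11: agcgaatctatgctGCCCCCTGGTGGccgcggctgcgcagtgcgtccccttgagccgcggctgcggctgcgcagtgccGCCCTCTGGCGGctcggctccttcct
Fitm2: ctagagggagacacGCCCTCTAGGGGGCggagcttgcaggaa

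The last set holds strong peaks without an exact motif. Those at Dus3l (chr17:56763340-56763379, plus strand), Gins4 (chr8:23237830-23237869, minus strand) and Wdr37 (chr13:8871272-8871311, minus strand) have the motif with 1 mismatch, in capitals, at positions 9, 7 and 11 of the motif as counted from its own 5′ end. The peak at Grm4 has neither, and its central 120 bases (chr17:27520759-27520878, minus strand) are shown with the CpG dinucleotides in capitals.
Dus3l: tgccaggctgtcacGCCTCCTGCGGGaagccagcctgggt
Gins4: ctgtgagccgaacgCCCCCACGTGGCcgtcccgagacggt
Wdr37: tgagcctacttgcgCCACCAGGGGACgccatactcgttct
Grm4: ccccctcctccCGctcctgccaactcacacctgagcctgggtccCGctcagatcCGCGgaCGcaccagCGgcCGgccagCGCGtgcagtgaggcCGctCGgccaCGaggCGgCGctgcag

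The annotation holds 21755 protein-coding gene records on Chromosomes 1 to 19 and X, of which 19373 had a single promoter by this rule. A CTCF peak lay at 1642 of them, or 8.48% (95% Wilson interval 8.09% to 8.88%, which like all intervals below covers counting error only). Most peaks served 1 gene: 1608 peaks had 1 single promoter in reach, 36 had 2 and 1 had 3. At 41 promoters there were 2 peaks. For comparison, 227 of the 2382 gene records with an opposite-strand partner within 1 kb had a peak (9.53%), from 122 peaks, none of which was also at a single promoter. The remaining comparison group is the 16272 peaks more than 1 kb from every gene start of any kind.

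LSK CTCF peaks at single promoters lay more often upstream than downstream of the start of transcription, and were densest in the last 200 bp before it. The midpoint was upstream of the TSS in 1119 peaks (68.0%, 65.7% to 70.2%), and 809 peaks (49.2%) covered the TSS itself. In bins of 100 bp, the most peaks, 263, had their midpoint in the last 100 bp before the TSS, and 221 in the 100 bp before that, while the first 100 bp downstream held 84. Within 250 bp upstream there were 557 midpoints (33.9%, 31.6% to 36.2%) and within 250 bp downstream 143 (8.69%, 7.43% to 10.2%). The peaks in the last 100 bp before the TSS had a median fold enrichment of 12.73, against 10.12 in the first 100 bp downstream. The bin from 1300 to 1400 bp downstream, with 13 peaks, had the same median. The outermost bins, with 2 peaks each, had 17.62 upstream and 14.035 downstream, and all remaining bins were lower. By the annotation, 62.4% of the midpoints were outside protein-coding genes, 18.8% in introns, 10.7% in untranslated regions, 5.65% in coding exons and 2.43% in other exons.

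**Figure D1:**
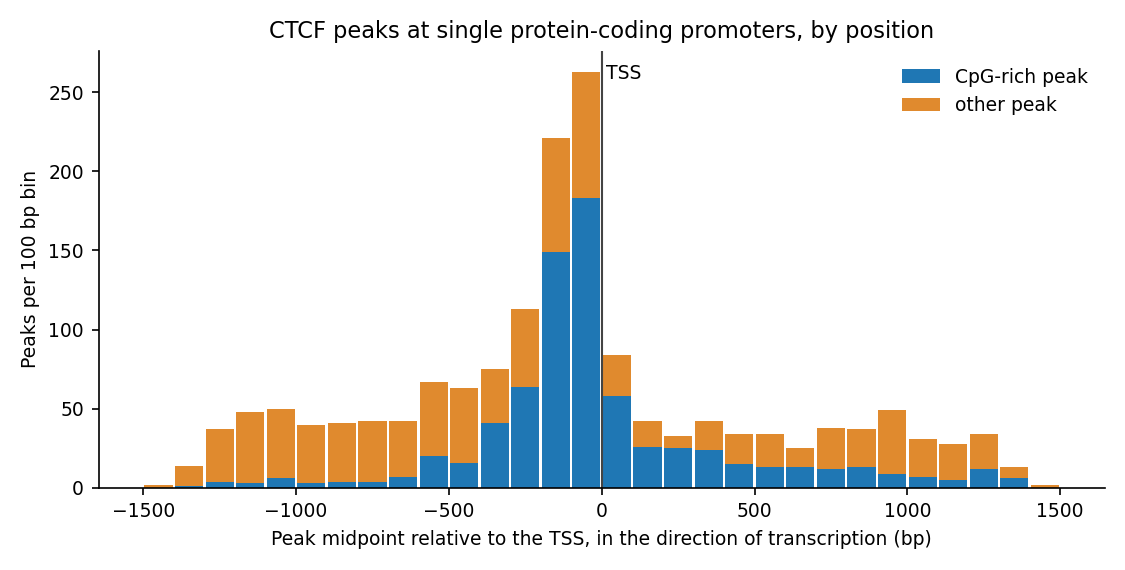
Number of peaks at single promoters (y axis, peaks per 100 bp bin) by the position of the peak midpoint relative to the TSS (x axis, bp, upstream negative), with CpG-rich peaks in blue and the remaining peaks in orange. The bar just upstream of the TSS holds 263 peaks, 183 of them CpG-rich, and the bar just downstream 84.

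The pile-up next to the TSS was made mostly of CpG-rich peaks. A sequence was called CpG-rich when its GC share was over 50% and its CpG dinucleotides reached more than 0.6 of the number its base composition would give (observed over expected). By this measure 743 of the 1645 peaks (45.2%) were CpG-rich, against 1.81% of the peaks away from every gene start, a difference of 43.4 percentage points (Newcombe interval 41.0 to 45.8). At bidirectional promoters the share was 56.6%, and the difference of −11.4 points had an interval from −20.2 to −2.20. The rule places the peaks at gene starts, which are often CpG-rich without a peak too. Of all 19373 single promoters, 7191 were CpG-rich in the window from 250 bp before to 50 bp after the TSS. Among the CpG-rich peaks at single promoters, 50.6% (47.0% to 54.2%) had their midpoint in the 250 bp upstream of the TSS, and the median distance to the TSS was 170 bp. Among those not CpG-rich, 20.1% (17.6% to 22.8%) lay there, and the median distance was 638 bp. Median CpG observed over expected was 0.586 in the peaks at single promoters (quartiles 0.385 and 0.751), 0.651 at bidirectional promoters and 0.235 away from gene starts. Soft-masked repeats made up a median of 8.56% of the bases, against 14.9% away from gene starts, and more than 50% of the bases in 24 peaks (1.46%, against 6.74%).

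The fold enrichment of a peak is the authors' linear ratio of ChIP signal over background. It was close to that of other peaks: the median was 10.44 at single promoters (quartiles 7.83 and 14.03, from 1645 peaks) and 10.12 over all other peaks, with the same 10.12 at bidirectional promoters and away from gene starts. The difference of 0.32 had an interval from 0 to 0.65, from the order statistics of the promoter peaks. The median −log10 p-value, also the authors', was 13.383 against 12.565 in the other peaks, and the median width 703 bp against 716 bp.

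Within the promoter peaks, fold enrichment went with both the motif and CpG content. CpG-rich peaks with the core motif had the highest median, 12.73 (quartiles 9.79 and 15.7, n = 232). CpG-rich peaks without it and other peaks with it had the same median of 10.77 (n = 511 and 261). The remaining 641 peaks, with neither, had 9.75 (quartiles 7.35 and 12.73), so the ranges of the classes overlapped widely. The 18 peaks with 2 or more motifs had a median of 15.34. Peaks covering the TSS had a median of 11.42 and the remaining ones 9.79. GC content moved with these classes (median 60.1% in CpG-rich and 50.3% in other promoter peaks), and its part in the fold enrichment was not tested.

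**Figure D2:**
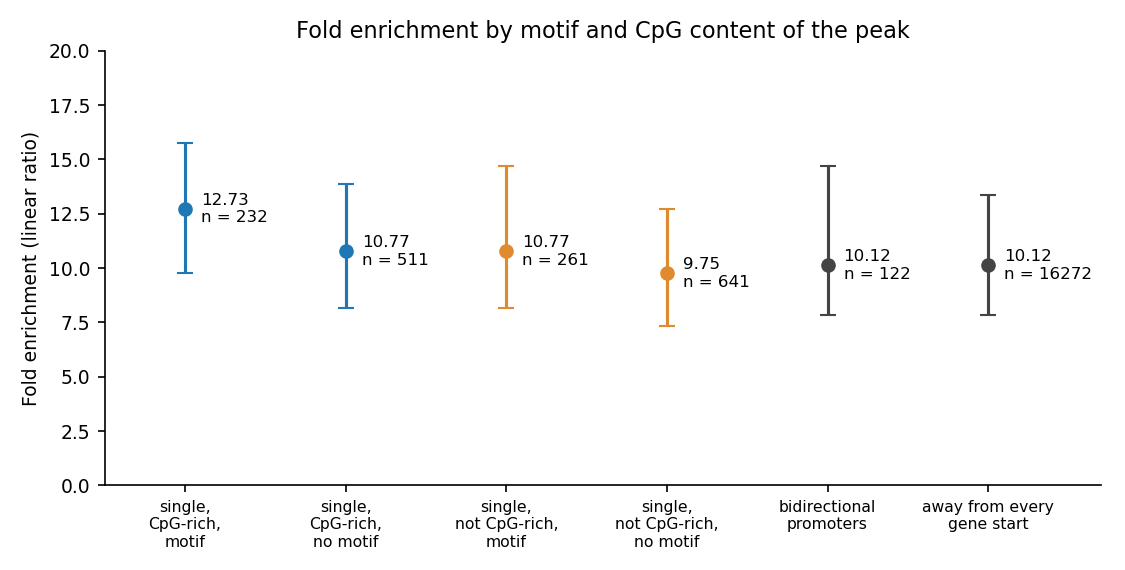
Authors' fold enrichment (y axis, linear ratio) of peaks at single promoters by CpG content and core motif, beside peaks at bidirectional promoters and away from every gene start (x axis). Points are medians and bars run from the lower to the upper quartile; CpG-rich promoter peaks with the motif are highest at 12.73, and all quartile ranges overlap.

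The 10 strongest peaks at single promoters had fold enrichments from 26.76 to 33.28. The highest, 33.28, lay at chr17:56763112-56763813 with its midpoint 1295 bp upstream of Dus3l, which encodes a tRNA-modifying enzyme, and had the motif only with 1 mismatch. It was followed by Grm4, a glutamate receptor gene, with 32.63 in an intron 585 bp downstream of the TSS (chr17:27520337-27521300) and no motif even with 1 mismatch. Gins4, a subunit of the replicative helicase complex, had a peak of 31.98 over its TSS (chr8:23237471-23238341), again with 1 mismatch. Then came Wdr37 (29.04), Cfap299 (28.06), Erlin2 (27.74), Pkn3 (27.41), Aanat (27.41), Lsm11 (27.08) and Tmem106c (26.76). The exact motif was present in 4 of the 10, at Cfap299, Aanat, Lsm11 and Tmem106c. Erlin2 was like Grm4 in having none with up to 1 mismatch. Over all promoter peaks, 30.0% had the exact motif and 20.8% had none with up to 1 mismatch. Of the promoters with 2 peaks, those with the highest summed fold enrichment were Ext2 (17.62 and 16.97), Pkn3 (27.41 and 6.85), Hic1 (20.56 and 10.12) and C1ql4 (20.56 and 9.79).

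The core motif was less common in promoter peaks than elsewhere. It was present without a mismatch in 493 peaks (30.0%, 27.8% to 32.2%), against 36.2% of all other peaks, a difference of −6.19 points (−8.47 to −3.82). Against bidirectional promoters (27.05%) the difference of 2.92 points had an interval from −5.84 to 10.4 and so included 0. With up to 1 mismatch 79.2% of the peaks had it, against 84.0% in the other peaks and 68.9% at bidirectional promoters, and 342 peaks had neither. The share was nearly the same in CpG-rich promoter peaks (31.2%) and in those not CpG-rich (28.9%), with a difference of 2.29 points (−2.15 to 6.75). The motif lay near the middle of the peak, at a median of 37 bp from the midpoint in the 469 peaks with exactly 1 motif and 1 promoter.

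The letters of the motif at promoters differed from those elsewhere mainly at the third base, where the motif allows any base. In the 511 motifs of promoter peaks this base was G in 31.9% (28.0% to 36.1%) and A in 49.1% (44.8% to 53.4%), whereas in the 6433 motifs of other peaks it was G in 6.47% (5.89% to 7.09%) and A in 79.4% (78.4% to 80.3%). A G there makes a CpG with the base before it, as in the motifs shown for Myrf, Vps36 and Alkbh2. A CpG stood inside the 12 bases in 34.2% (30.3% to 38.5%) of the promoter motifs and 6.75% (6.16% to 7.39%) of the others. The motif CCGCCAGGGGGC, shown for Vps36, made up 8.41% of the promoter motifs and 1.10% of the others, and CCGGCAGGGGGC, shown for Alkbh2, 5.48% and 0.668%. CCACCAGGGGGC, without a CpG and the most common motif at promoters, was about as common in both, with 8.61% and 8.43%. CCAGCAGAGGGC went the other way, with 4.31% at promoters and 9.44% elsewhere. Smaller shifts toward G or C were present at positions 5, 8 and 9, also with intervals that did not overlap. C at position 5 had 66.7% against 58.3%, G at position 8 67.3% against 54.9%, and G at position 9 70.6% against 61.4%. At position 4 the intervals overlapped. The whole sequence of promoter peaks was also richer in CpG, as given above, and its part in the letters of the motif was not tested.

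The mismatch had its own pattern in the peaks with exactly 1 motif at 1 mismatch and no exact motif. Position 1 was the most common place in the 600 promoter peaks (20%, 17.0% to 23.4%) and as common in the 6665 other peaks (19.3%). Position 5 held 19.3% (16.4% to 22.7%) of the mismatches at promoters and 33.0% (31.8% to 34.1%) elsewhere. Position 12 was also less frequent at promoters, with 11.8% (9.49% to 14.7%) against 18.9% (18.03% to 19.9%). Positions 2, 6, 9 and 10 were more frequent there, with 6.17%, 10.5%, 7.83% and 4% against 2.06%, 4.85%, 2.79% and 1.61%, and none of the 4 pairs of intervals overlapped. The central G at position 7 was the place in only 1.67% and 1.65%, the peak at Gins4 among them. How many matches with 1 mismatch arise by chance was not estimated. Promoter peaks were richer in GC (median 55.2% against 46.5% in the other peaks), and its part in the mismatch positions was not tested.

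Motifs near the TSS pointed along the gene more often than against it. Of the 469 promoter peaks with 1 motif and 1 promoter, 291 had the motif on the strand of transcription (62.0%, 57.6% to 66.3%). Where the motif was within 100 bp upstream of the TSS, this held for 89 of 112 (79.5%, 71.1% to 85.9%). Where it was more than 500 bp from the TSS on either side, 97 of 191 were on the strand of transcription (50.8%, 43.8% to 57.8%). In the near class the median fold enrichment was 13.70 with the motif along the gene and 12.07 against it. The strongest near peaks with the motif along the gene were at Myrf, a transcription factor of myelination (26.10), Vps36, a subunit of an endosomal sorting complex (25.78), Pcp4 (23.82, with the motif 11 bp from the TSS), Eid2b (21.86), Alkbh2, a DNA repair enzyme (21.54), and Psg16 (20.56). Those against it were at Tmem106c (26.76), Nipsnap2 (24.15) and Chd1l, a chromatin remodeler (18.60).

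All sites of the core motif near single promoters, with or without a peak, give the background for this count. There were 964 motif sites within 1 kb of a single promoter, and 432 lay inside a peak (44.8%, 41.7% to 48.0%). Sites upstream of the TSS were in a peak more often (310 of 564, 55.0%) than sites downstream (122 of 400, 30.5%), a difference of 24.5 points (18.2 to 30.4). The share was highest for the last 100 bp before the TSS, with 125 of 188 (66.5%, 59.5% to 72.8%), and lowest from 100 to 250 bp downstream, with 17 of 75 (22.7%, 14.7% to 33.3%).

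In those last 100 bp, 76.8% (68.7% to 83.3%) of the 125 sites in a peak were on the strand of transcription, against 54.0% (41.8% to 65.7%) of the 63 sites outside every peak. The difference was 22.8 points (8.56 to 36.7). Seen from the motif, 96 of 130 sites along the gene were in a peak (73.8%) and 29 of 58 sites against it (50%), a difference of 23.8 points (8.95 to 38.04). More than 500 bp from the TSS, 51.2% (42.5% to 59.8%) of the sites in a peak were on the strand of transcription, 25.6 points (13.8 to 36.5) below those in the last 100 bp upstream. The first 100 bp downstream held few sites, with 13 of the 16 in a peak along the gene (interval 56.99% to 93.4%).

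**Figure D3:**
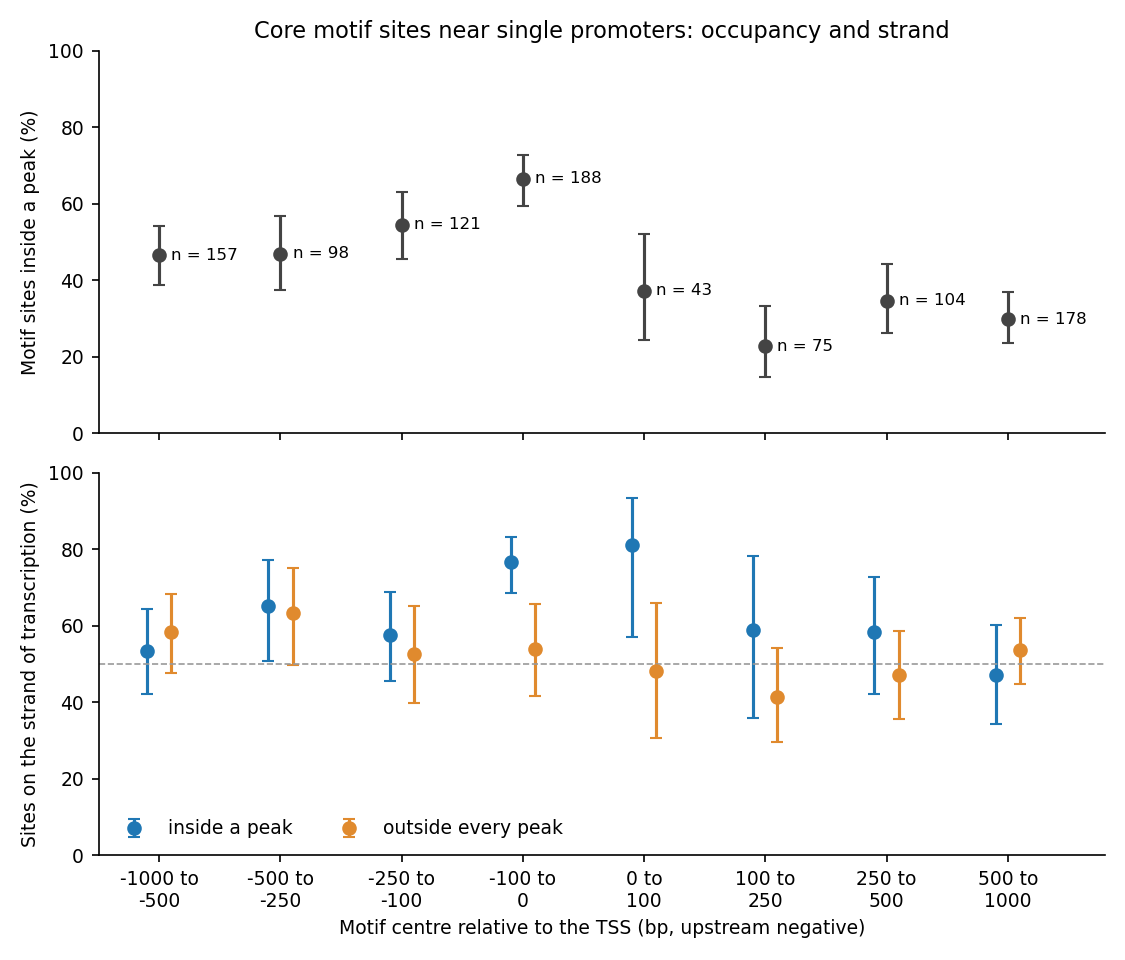
Core motif sites within 1 kb of single promoters by the place of the motif center relative to the TSS (x axis, bp, upstream negative), with the share inside a CTCF peak (upper panel, y axis in percent) and the share on the strand of transcription (lower panel, y axis in percent, dashed line at 50%) for sites inside a peak (blue) and outside every peak (orange), and 95% Wilson intervals as bars. In the last 100 bp upstream 66.5% of the sites were inside a peak and 76.8% of those pointed along the gene, whereas downstream from 100 bp on no bin had more than 34.6% inside a peak.

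Motif sites in CpG-rich sequence were in a peak more often. With the 100 bp on either side of the motif CpG-rich, 53.2% (48.5% to 57.8%) of 438 sites were in a peak, against 37.8% (33.8% to 42.1%) of the remaining 526, a difference of 15.4 points (9.06 to 21.5). The upstream excess was present in both classes, with 63.7% upstream and 38.5% downstream in CpG-rich sequence and 47.7% and 23.9% in the rest. Sites with a CpG inside the motif were in a peak in 51.8% of 301 cases and those without one in 41.6% of 663, a difference of 10.2 points (3.41 to 16.9). Among sites in CpG-rich sequence this difference was 5.02 points with an interval from −4.29 to 14.2, and so included 0. Methylation was not measured in these files.

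Seen from the promoters, CTCF peaks were more frequent at CpG-rich ones. For this count, promoters were classed by the 250 bp before and 50 bp after the TSS. A peak lay at 911 of the 7191 CpG-rich promoters, or 12.7% (11.9% to 13.5%), and at 731 of the 12182 others, or 6.0% (5.59% to 6.44%). With all single promoters put in 5 equal groups by CpG observed over expected, the share was 2.17% in the lowest group, 5.11%, 10.3% and 12.9% in the next ones and 11.98% in the highest. The intervals of the highest groups (11.86% to 13.97% and 10.995% to 13.04%) overlapped. With a core motif within 1 kb, the share was 50% for CpG-rich promoters and 44.7% for the others, with intervals of 45.6% to 54.4% and 40.2% to 49.4% that overlap. Without one it was 9.87% (9.18% to 10.6%) and 4.56% (4.19% to 4.95%).

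**Figure D4:**
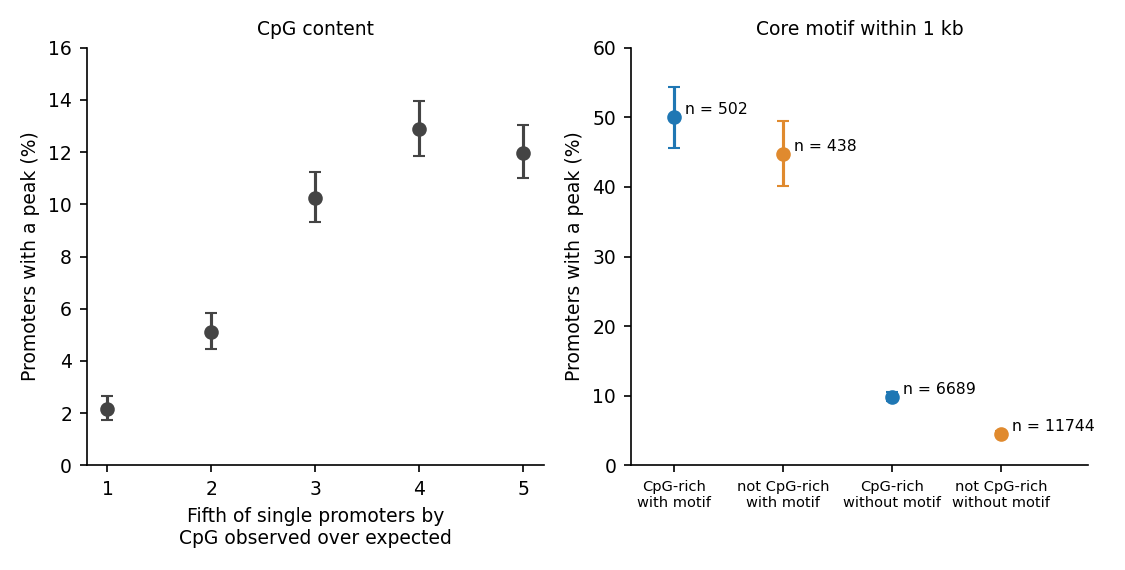
Share of single promoters with a CTCF peak (y axis, percent) in 5 equal groups by CpG observed over expected (left, x axis from lowest to highest) and by CpG class and presence of a core motif within 1 kb (right); bars are 95% Wilson intervals. The share rises from 2.17% to 12.9% in the fourth group, and is 50% and 44.7% with a motif against 9.87% and 4.56% without.

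Short words of other promoter factors were counted in windows of 300 bp on both strands: 300 bp around the midpoint of each peak, and the promoter window above. The GC box GGGCGG, the word of the SP and KLF families, stood in 37.4% of the promoter peaks and 7.96% of the other peaks. Among CpG-rich promoters, however, it was present in 75.1% with a peak and 77.2% without one, with intervals that overlap. The same was true of the ETS word CCGGAAGT (8.34% with and 7.52% without a peak), the NRF1 word GCGCATGC (5.38% and 6.70%), the E-box CACGTG (11.96% and 12.2%), the GATA word AGATAA (3.07% and 4.06%), the RUNX word TGTGGT (9.33% and 10%) and the TATA box TATAAA (5.93% and 5.19%). The CCAAT box CCAAT was in 32.9% (30.0% to 36.0%) of CpG-rich promoters with a peak and 37.5% (36.3% to 38.7%) of those without. The core CTCF motif was in 13.8% (11.7% to 16.2%) against 1.15% (0.911% to 1.44%), the only one of the words searched at which the shares differed several-fold. A match is a run of letters and does not show that a factor was bound.

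Gene families were listed by symbol, so a list can hold genes that share a name but not the function. The genes with a peak at their single promoter were then read by families, for which 8.48% of all single promoters is the background. Of 26 lists, which were chosen with earlier results of these data known, 14 had a share above it. Lists of gene families of the mitochondrion, the ribosome and DNA replication were among the highest, but the promoters of a list share base composition, and 12.7% is the nearer background for lists made mostly of CpG-rich promoters.

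Complex I, the first enzyme of the mitochondrial respiratory chain, had the highest share, with a peak at 10 of 25 promoters of its subunits and assembly factors (40%, 23.4% to 59.3%). The median fold enrichment was 10.28, about that of all promoter peaks. The strongest peaks were at the subunit genes Ndufb10 (21.21, midpoint 64 bp upstream of the TSS) and Ndufc1 (19.25, 85 bp upstream), the assembly factor gene Ndufaf4 (15.99, 55 bp upstream) and the subunit gene Ndufb7 (12.73, 30 bp upstream). These 4 peaks all covered the TSS, and Ndufaf4 had the exact motif. It was present at 2 of the 10 genes of the list with a peak, and in 30.0% of all promoter peaks. The list held peaks at 6 of its 14 CpG-rich promoters. In the upper 50% of peaks by −log10 p its share was 16% (6.403% to 34.7%), below the 26.7% of CTCF and cohesin genes, the 18.8% of cytoplasmic ribosomal protein genes and the 18.75% of DNA replication genes, with a background of 4.48%.

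Cytoplasmic ribosomal protein genes had a peak at 18 of 69 promoters (26.1%, 17.2% to 37.5%), each gene with its own peak, and at 15 of 50 CpG-rich ones. The median fold enrichment was 12.725, and the values ran from 5.55 at Rpl27 to 18.27 at Rps3a1. In 10 of the 18 genes the midpoint was within 250 bp upstream of the TSS, as at Rps3a1 (101 bp), Rpl5 (15.66, 17 bp) and Rpl10a (15.34, 50 bp). This held for 33.9% of all promoter peaks and 50.6% of the CpG-rich ones. Mitochondrial ribosomal protein genes had a peak at 9 of 45 promoters (20%, 10.9% to 33.8%), led by Mrps33 (15.34), Mrpl38 (13.70), Mrps16 (13.38) and Mrps2 (12.07), and 6 of the 9 were within 250 bp upstream. The interval of this list, of whose promoters 29 were CpG-rich, included the 12.7% of CpG-rich promoters. In the upper 50% of peaks the share of mitochondrial ribosomal protein genes was 8.89% (3.51% to 20.7%). Ribosomal protein genes have many processed copies elsewhere in the genome, and the authors kept reads that map to several places, so reads at exons cannot be told apart from those of the copies.

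DNA replication genes had a peak at 7 of 32 promoters (21.9%, 11.02% to 38.8%), and at 4 of 21 CpG-rich ones, so that the interval included the 12.7% of CpG-rich promoters. With the peak midpoint within 1 kb, or with a 500 bp window, the share was 12.5% (4.97% to 28.1%). Besides Gins4 these included Pola2, a subunit of the priming polymerase (15.34, with an exact motif, 1228 bp upstream), Mcm5, a helicase subunit (14.03, 827 bp upstream), and Rfc3, a clamp loader subunit (13.70, 128 bp upstream). RNA polymerase subunits (3 of 17, led by Polr2c with 20.23), aminoacyl tRNA synthetases (4 of 25, led by Rars with 13.70), cyclins and cyclin-dependent kinases (6 of 49, led by Cdk17 with 15.99) and proteasome genes (4 of 37, led by Psmd6 with 25.12 and Psmc6 with 21.21) were above the background by their shares, but all 4 intervals included it. The 6 genes of the cyclin and cyclin-dependent kinase list include Cdkn2b, which encodes an inhibitor of such kinases, and Cdkn2aipnl, which encodes neither. These 4 lists were made mostly of CpG-rich promoters. RNA polymerase subunits (17.6%) and aminoacyl tRNA synthetases (16%) were above the 12.7% of CpG-rich promoters. The cyclin and cyclin-dependent kinase list (12.2%) and proteasome genes (10.8%) were below 12.7%, also with intervals that included it. By its share the list of translation initiation factor genes was below both backgrounds, with 2 of 45, at Eif3f (12.07) and Eif2ak1 (6.20). Eif2ak1 is in the list by its symbol and encodes a kinase that acts on an initiation factor.

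Genes of CTCF and its partners were a short list of mostly CpG-rich promoters, 12 of 15. Among genes of CTCF and the cohesin complex, 4 of 15 single promoters had a peak (26.7%, 10.9% to 52.0%), an interval that included the 12.7% of CpG-rich promoters. These were Esco1, which acetylates cohesin (14.03), Smc3, a subunit of the ring (11.75), Nipbl, which loads cohesin (10.77), and Pds5b, a regulator of its release (9.14). Of these 4 peaks, that at Pds5b had the exact motif, on the strand of transcription, where 30.0% of all promoter peaks had the motif on either strand. Of 56 promoters of chromatin modifier genes, 4 had a peak (7.14%): Kmt2b, a histone methyltransferase (19.90), Dnmt3a, a DNA methyltransferase (10.12), Kdm1a, a histone demethylase (8.48), and Cbx2, a Polycomb protein (6.53).

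For lineage genes of hematopoiesis the lists were short and none stood apart from the background. Of 29 single promoters of stem and progenitor genes, 4 had one (13.8%, 5.50% to 30.6%): Gfi1b, a transcriptional repressor (13.38, exact motif along the gene), Egr1, an immediate early transcription factor (7.5), Cxcr4, the chemokine receptor that keeps stem cells in the marrow (6.85), and Kit, the receptor that is also 1 of the sorting markers (6.53, in the intron with a motif along the gene, midpoint 894 bp downstream). The last 3 were below the median of all promoter peaks. Erythroid genes had 2 of 24, the stronger at Klf1, a transcription factor of red cell development (16.97, in a coding exon 1202 bp downstream). Megakaryocyte and platelet genes had 1 of 18, at Thbs1 (8.81). Granulocyte and monocyte genes had 1 of 20, at Cebpa, with a peak of 15.66 over the TSS and a weak one of 4.57 centered 1055 bp upstream. Lymphoid genes had 0 of 22, which allows a share of up to 13.6% by a limit of 3 counts (Wilson upper limit 14.9%). The intervals of all 5 lists included 8.48%. With every transcript start in place of the gene start, where the background is 12.6%, the shares were 23.3% for stem and progenitor, 24% for erythroid, 15.8% for megakaryocyte, 4.76% for granulocyte and monocyte and 9.09% for lymphoid genes, and in the upper 50% of peaks by −log10 p, where it is 4.48%, stem and progenitor genes had 3.45% and megakaryocyte genes 0%.

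Gene clusters gave mixed values. Hox genes had a peak at 5 of 39 promoters (12.8%, 5.60% to 26.7%), from 4 peaks, with Hoxa7 (17.29), Hoxa10 (15.34), Hoxb5 (15.34) and Hoxc10 (10.77) named and none with the exact motif. Clustered protocadherin genes had 5 of 57, at the background, with weak peaks from 5.87 to 9.46. Replication-dependent histone genes had 2 of 40. Zinc finger genes named Zfp had 24 of 363 (6.61%, 4.48% to 9.65%) and solute carrier genes 37 of 353 (10.5%, 7.70% to 14.1%), with Slc6a21 (21.21) the strongest. The list of genes named Rab had 6 of 65, led by Rab27a (19.58), and cytochrome P450 genes 3 of 98, led by Cyp46a1 (15.99). The Rab count includes Rab3ip, which encodes a Rab-interacting protein. The large receptor families were at the other end: 3 of 1093 olfactory receptor promoters (0.274%, 0.0934% to 0.804%), at Olfr557 (12.07), Olfr556 (8.16) and Olfr9 (4.89), and 0 of 326 vomeronasal receptor promoters, which allows up to 0.920% by the limit of 3 counts (Wilson 1.16%). Neither family had a CpG-rich promoter. Keratin genes had 0 of 53, which allows up to 5.66% by the same limit (Wilson 6.76%). In the upper 50% of peaks by −log10 p, with its background of 4.48%, the shares were 1.65% for Zfp, 5.38% for solute carrier, 1.02% for cytochrome P450, 0.0915% for olfactory receptor and 0% for protocadherin genes, and 1.79% for the chromatin modifier genes above.

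**Figure D5:**
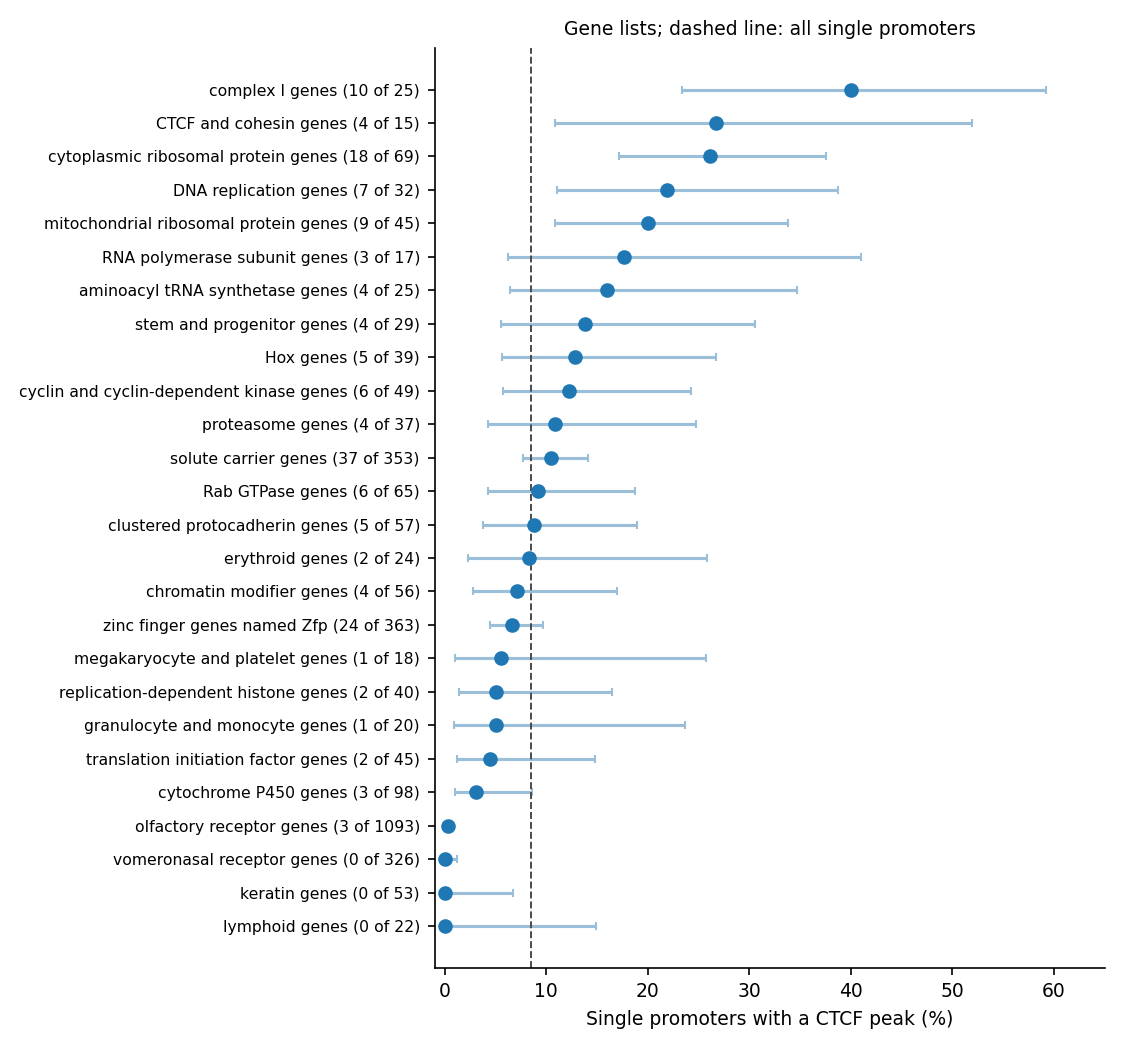
Share of single promoters with a CTCF peak (x axis, percent) in each of the 26 gene lists (y axis, with the number of promoters with a peak of those in the list). Bars are 95% Wilson intervals and the dashed line is the 8.48% of all single promoters; complex I genes are highest at 40%, and the interval of the olfactory receptor genes lies below the line.

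By chromosome the share ran from 6.58% on Chromosome 13 to 11.98% on Chromosome 11 among the autosomes. On Chromosome X, 12 of 887 single promoters had a peak (1.35%, 0.776% to 2.35%), against 8.82% (8.42% to 9.23%) on the autosomes. The whole list was sparse there too, with 248 peaks against 531 to 1462 on each autosome. The mice were male, so that Chromosome X was present as 1 copy, and the part of copy number in this value was not tested. Copies of sequence within the set were searched only among the 493 peaks with an exact motif, where the 40 bases around a motif were identical in 2 pairs of peaks, at Hbq1a and Hbq1b (16.64 and 14.36) and at Mterf1a and Mterf1b (15.34 and 13.05), and reads mapping to both copies could not be separated.

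The limits of the rule fell within a continuous range of peaks. The edge of the member nearest to the limit was 1000 bp from the TSS of Sema5a (fold enrichment 9.79), and the nearest peak outside 1002 bp from that of Vat1 (6.53). For the partner on the opposite strand, Gpr108 was just inside, with the next opposite TSS at 1009 bp (6.85), and Parp3 just outside, at 986 bp (14.68). In the last 200 bp inside the distance limit, 136 peaks had a median fold enrichment of 9.79, the core motif in 29.4% and a CpG-rich sequence in 20.6%. In the first 200 bp outside, 139 peaks had 10.77, 28.1% and 10.1%.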

How the data were processed

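CTCF ChIP-seq of sorted mouse LSK cells (1 library) was analyzed from the deposited peak list. Per the study's methods the authors aligned reads to mm10 with Bowtie (version 1.0.0 in the submitters' processing notes), kept multiply mapping reads, removed mitochondrial and unplaced sequences, and called peaks with MACS. The sources used here do not give the MACS settings or its control. The deposited list gives a fold enrichment, a linear ratio over background made by the authors, and the −log10 p-value of each peak as the authors' peak caller gave it. Its column of false discovery rates was not used, and the LSK and MEP inputs were not analyzed here.

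Starts were read as BED starts. Peaks were assigned to gene records of GENCODE M21 (GRCm38.p6, whose chromosome lengths match mm10), and sequences came from that assembly. Composition was computed over each whole peak. CpG-rich meant GC over 50% and CpG observed over expected above 0.6. Promoter windows ran from 250 bp before to 50 bp after the TSS. The core CTCF motif of 12 bases was searched on both strands in whole peaks, and short words in 300 bp windows. Shares carry 95% Wilson intervals and differences of shares Newcombe intervals. Genes were named as the 10 strongest peaks, the 4 strongest of each list, the strongest of each motif class and the promoters with 2 peaks; a few others named for scale were chosen after their values were seen. Some genes that this rule names are not reported here. Members and lists were chosen with earlier results of these data known. Alternatives were the upper 50% of peaks by −log10 p, the peak midpoint in place of any overlap, a 500 bp window, a 5 kb rule for the opposite TSS, every transcript start, 1 mismatch and the central 200 bp. The steps were tested on simulated data. Computation was in Python 3.11.15 with pandas 2.3.3, scipy 1.17.1 and numpy 2.4.6, and figures were drawn with matplotlib 3.10.9.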

Additional observations from a re-analysis of the deposited data

How the results depend on the processing

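Of the shares, counts and medians recomputed under each alternative, 29 moved by less than their interval or stayed within 1.5 times the count. Another 15 moved by more, and 0 reversed. For single gene lists the numbers were 89, 15 and 0. These counts compare each value with its main value and not with the background of its setting. By their shares some lists changed sides against that background, but the lists named here had few genes and intervals that included it. Stem and progenitor genes had 13.8% (5.50% to 30.6%) against 8.48%, but 3.45% (0.611% to 17.2%) against 4.48% in the upper 50% of peaks. Erythroid genes had 8.33% (2.32% to 25.8%) against 8.48%, but 24% (11.5% to 43.4%) against 12.6% with every transcript start. In the upper 50% of peaks by −log10 p (12.617 or higher), 863 peaks lay at 4.48% of single promoters, 36.6% of them had the motif, 72.3% lay upstream and median CpG observed over expected was 0.623. With the midpoint within 1 kb, 7.13% of promoters had a peak, with a CpG median of 0.627. With a 500 bp window these were 6.48% and 0.641, 72.6% lay upstream and the masked median was 7.60%. With every transcript start there were 2808 peaks at 12.6% of promoters. The motif share was 79.2% with 1 mismatch and 25.7% in the central 200 bp. Fewer peaks, narrower windows, more starts and a looser motif change these numbers by construction, and the cause of the shifts in composition and position was not tested. From 13 to 15 of the 26 lists were above the background share, against 14. No paired analysis was possible because only the CTCF library of LSK cells had peaks to analyze, and for the same reason no replicate was left out. Without read counts or a replicate, a promoter without a peak cannot be told apart from one below the caller's threshold.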
